A study of Homo sapiens with 6 samples.

Results

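The genes described here are 10 members of the human metallothionein and zinc transport system. They were taken by gene symbol from the 58735 genes of the deposited table. They are the metallothioneins MT1E, MT1F, MT1G, MT1X and MT2A, the transcription factor MTF1, the zinc exporter SLC30A1 and the zinc importers SLC39A7, SLC39A10 and SLC39A14. All 10 were in the table. A gene was tested when its average across the 6 libraries reached 1 FPKM, and 8 members did. MT1F and MT1G did not. FPKM are fragment counts scaled by gene length and by a library total. Wherever values of single libraries are listed, they stand in the order of replicates 1, 2 and 3.

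RNA was sequenced from 6 libraries labelled Hep3B, a line from a human hepatocellular carcinoma. The 3 control libraries carried a control short hairpin RNA (shRNA). The other 3 carried an shRNA against HYOU1, a chaperone of the endoplasmic reticulum (ER). The sources used here do not give the hairpin sequences, their delivery or the time of harvest. The labels do not say whether replicates were separate cultures, so p-values measure the spread between libraries, which may be technical.

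Metallothioneins are small, cysteine-rich proteins of the cytosol that bind zinc and copper and buffer the free zinc of the cell. Their genes are switched on by MTF1, a zinc finger factor that senses free zinc and binds metal response elements in promoters. SLC30A proteins (ZnT) carry zinc out of the cytosol and SLC39A proteins (ZIP) carry it in, from outside the cell or from organelles. The liver is a main site of metallothionein synthesis.

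The promoters of the members were searched for the short core motif through which MTF1 acts. Whether matches go with the changes of the members was not tested. The core was searched as TGCACNC and TGCGCNC on both strands, in the 250 bases before each RefSeq start (GRCh38.p14). RefSeq promoters were found for 6 of the 10 members, and MT1E, MT1F, MT1G and SLC39A14 had none to search. MT2A held 7 matches, 5 of them on the forward strand, MT1X held 4 and SLC30A1 held 1, and no match overlapped another. MTF1, SLC39A7 and both listed starts of SLC39A10 held 0. Of 35116 promoters searched in the same way, 24.8% held at least 1 match, 0.370% at least 4 and 0.0313% at least 7. The 3 promoters with matches are printed because the number of matches in these windows differs between MT2A, MT1X and the exporter. Capitals mark the matches, and bases run 5′ to 3′ toward the start of the gene. They are chr16:56608334-56608583 on the plus strand for MT2A, chr16:56682220-56682469 on the plus strand for MT1X and chr1:211579162-211579411 on the minus strand for SLC30A1. A match is a description of the letters, not evidence of binding.
MT2A: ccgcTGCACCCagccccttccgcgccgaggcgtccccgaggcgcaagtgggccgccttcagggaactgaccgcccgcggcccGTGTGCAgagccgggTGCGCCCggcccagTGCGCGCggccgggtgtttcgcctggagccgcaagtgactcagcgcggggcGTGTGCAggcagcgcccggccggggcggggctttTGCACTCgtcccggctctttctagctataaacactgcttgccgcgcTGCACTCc
MT1X: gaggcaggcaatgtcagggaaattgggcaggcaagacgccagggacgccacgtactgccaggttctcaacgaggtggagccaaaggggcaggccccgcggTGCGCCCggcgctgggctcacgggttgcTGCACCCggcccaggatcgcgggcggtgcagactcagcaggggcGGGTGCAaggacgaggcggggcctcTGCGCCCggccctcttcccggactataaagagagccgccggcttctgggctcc
SLC30A1: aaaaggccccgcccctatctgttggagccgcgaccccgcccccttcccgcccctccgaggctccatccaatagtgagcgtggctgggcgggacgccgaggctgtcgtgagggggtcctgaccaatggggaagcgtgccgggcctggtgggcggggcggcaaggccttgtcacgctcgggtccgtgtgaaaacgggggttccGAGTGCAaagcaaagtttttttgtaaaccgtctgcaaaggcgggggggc

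**Figure D1:**
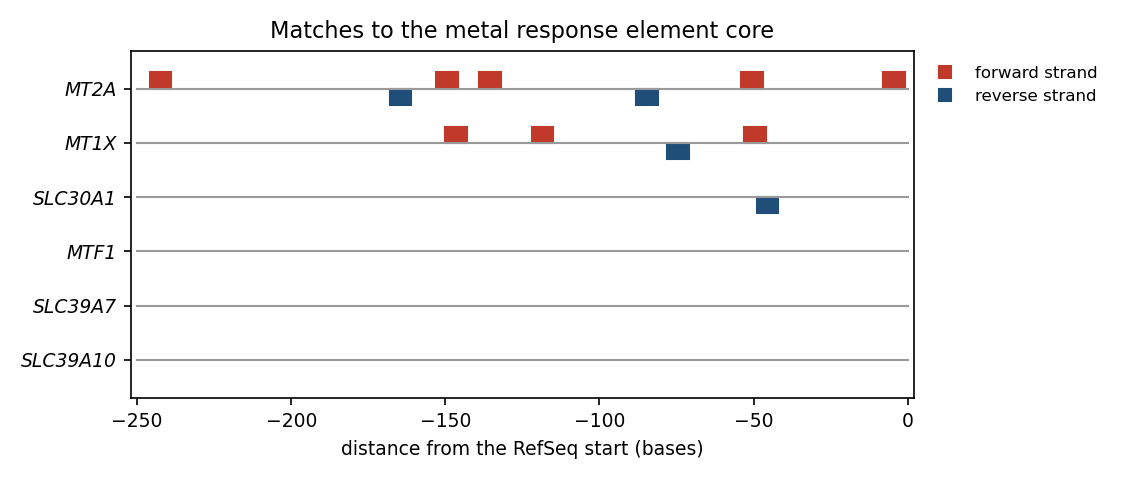
Position of matches to the metal response element core in 6 members with a RefSeq promoter, in bases before the start (SLC39A10 has 2 listed starts, neither with a match). Red boxes stand for matches on the forward strand and blue boxes for the reverse strand. MT2A has 7 matches, MT1X 4, SLC30A1 1 and the other genes 0.

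HYOU1 itself was at 37.6, 58.2 and 59.5 FPKM in the controls, and stood at 2.35, 2.32 and 2.37 FPKM under HYOU1 shRNA, so the level of the targeted gene matched the shRNA label of each library. The libraries held 16893091 to 18233240 fragments, as recovered from the deposited values. Control replicate 1 stood apart from the other controls. Its median log2 difference from the mean of the other controls was 0.76 among the most AT-rich genes (the bottom decile of GC content) and -1.0 among the most GC-rich (the top decile). Results of the members are therefore given with and without it, and after removal of the GC trend. Hepatocyte markers were nearly absent in both groups, which goes against the label of a line derived from hepatocytes. Of 14 such genes, HNF4A alone reached a mean of 1 FPKM, ALB, APOB and TTR had 0 fragments in every library, and AFP had 3 fragments in all libraries together. The summed level of the 14 was 3.78 to 4.53 FPKM in controls and 2.15 to 2.56 FPKM with HYOU1 shRNA. Of other cell types, 6 of 8 biliary and epithelial markers reached 1 FPKM (none at 0 in every library). Their summed level was 337 to 529 FPKM in controls and 637 to 738 FPKM with HYOU1 shRNA. Of the 6 tested, 1 rose, 0 fell and 5 did not pass (limma, adjusted p under 0.05), with a median log2 fold change of 0.49. Of the fibroblast and stellate cell markers 5 of 8 reached 1 FPKM, with COL1A2 at 0 in every library. Their sum was 91.0 to 108 FPKM in controls and 131 to 137 FPKM with HYOU1 shRNA. These 5 genes went both ways: 2 rose and 1 fell (limma, adjusted p under 0.05), beside 6.6% and 5.66% of all tested genes. Their median log2 fold change was -0.16, although the sum was higher. None of 6 immune or 4 endothelial markers reached 1 FPKM, with PTPRC, CD3E, LYZ and KDR at 0 in every library. Immune markers summed to 0.602 to 1.83 FPKM in controls and 0.611 to 0.941 FPKM with HYOU1 shRNA, and endothelial markers to 0.254 to 0.276 and 0.179 to 0.188 FPKM. The part of these shifts in the results on the members was not tested.

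The most abundant metallothioneins, MT2A and MT1E, rose with HYOU1 shRNA, and none of the transporters passed the test over all 6 libraries (limma; 1 was higher and 1 lower at an unadjusted p under 0.05, and 0 were called by voom). Of the 8 tested members, MT2A and MT1E rose and 0 fell (limma, adjusted p under 0.05), against 6.6% of all 12448 tested genes that rose and 5.66% that fell, or 12.3% called in either direction. At an unadjusted p under 0.05, 4 members were higher and 1 was lower, beside 17% and 14.6% of all tested genes. Limma-voom on the recovered fragments also called 2 rises and 0 falls, beside 7.59% and 6.73%. Values of the groups did not overlap for 5 members, 4 higher and 1 lower, against 23.8% and 20.6% of all tested genes, or 44.4% in either direction. The median log2 fold change of the 8 members was 0.46, beside 0.035 over all tested genes. In the fit without control replicate 1, 5 members rose and 1 fell, where 24.6% and 19.7% of all tested genes did, 44.3% in all. In the GC-corrected fit 4 rose and 1 fell, where 20.4% and 20.2% of all tested genes did, 40.5% in all.

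**Figure D2:**
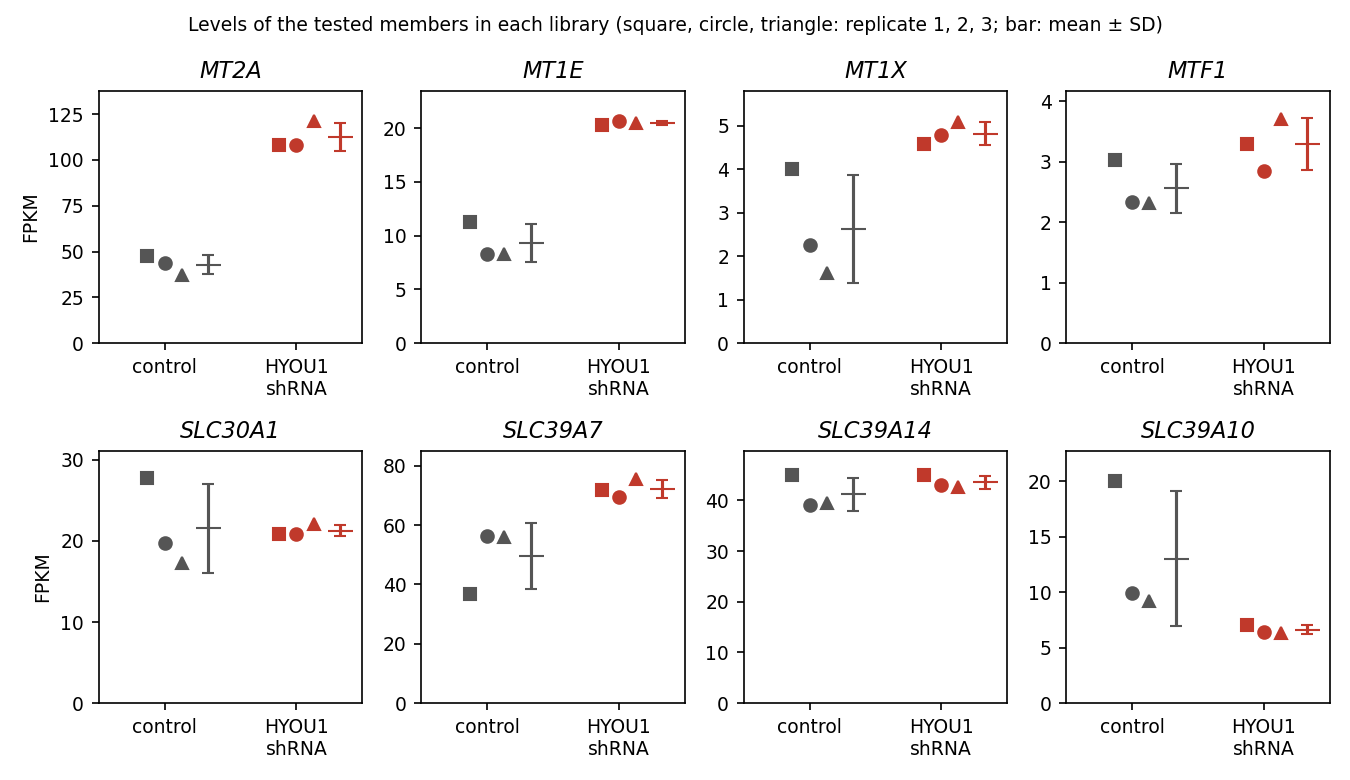
FPKM of the 8 tested members in each library, with the mean and SD (n = 3) beside each group. Squares, circles and triangles are replicates 1, 2 and 3, which were treated as unpaired. The groups do not overlap for MT2A, MT1E, MT1X, SLC39A7 and SLC39A10, and control replicate 1 lies above both other controls in each panel but that of SLC39A7.

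The metallothionein genes lie close together on chromosome 16 of GRCh38, between 56565049 and 56684196 for the 16 of 17 listed genes and pseudogenes that are there. MT2A (ENSG00000125148, 56608199 to 56609497, plus strand) is the most abundant form in many human cells. It was at 47.8, 43.6 and 37.4 FPKM in the controls, and stood at 108, 108 and 121 FPKM under HYOU1 shRNA. Every HYOU1 shRNA library was above every control. In RNA from whole cultures, a shift in the kinds of cells present and a change of RNA per cell cannot be told apart. The controls averaged 42.9 ± 5.23 FPKM and the HYOU1 shRNA libraries 112 ± 7.57 FPKM (SD, n = 3 each), a 2.62-fold higher level. On the log2 scale it rose by 1.39 (SE 0.13; limma, adjusted p = 0.00446). Without control replicate 1 it was 1.47 (adjusted p = 1.88e-05) and after the GC correction 1.28 (adjusted p = 0.00176). Leaving out HYOU1 shRNA replicate 3 brought the adjusted p to 0.0506, at a log2 fold change of 1.34.

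MT1E (ENSG00000169715, 56625475 to 56627112, plus strand) encodes another ubiquitous metallothionein of the MT1 group. Its level was 11.3, 8.27 and 8.32 FPKM in the controls, against 20.3, 20.7 and 20.5 FPKM under HYOU1 shRNA. The HYOU1 shRNA libraries were nearly equal and all above the controls, of which replicate 1 was the highest. The controls averaged 9.30 ± 1.74 FPKM and the HYOU1 shRNA libraries 20.5 ± 0.207 FPKM (SD, n = 3 each), 2.20-fold higher. The log2 difference between the groups was 1.15 (SE 0.15; limma, adjusted p = 0.0104). It was 1.29 without control replicate 1 (adjusted p = 8.95e-06) and 1.05 after the GC correction (adjusted p = 0.00722). MT1E was not past the threshold when HYOU1 shRNA replicate 1, 2 or 3 was left out (adjusted p = 0.0750, 0.0774 and 0.0762). The log2 fold changes were then 1.15, 1.14 and 1.15.

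MT1X (ENSG00000187193, 56682424 to 56684196, plus strand) did not pass the test over all 6 libraries. It was at 4.0, 2.26 and 1.60 FPKM in the controls, from 121, 75 and 51 fragments. Under HYOU1 shRNA it was at 4.57, 4.79 and 5.09 FPKM. The groups did not overlap, but control replicate 1 was close to the HYOU1 shRNA libraries. The log2 difference between the groups was 0.95 (SE 0.31; limma, adjusted p = 0.0950), with a 95% interval of 0.20 to 1.70. Without control replicate 1 it rose by 1.29 on the log2 scale (adjusted p = 0.000330). After the GC correction the log2 fold change was 0.85 (adjusted p = 0.117).

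MT1F and MT1G, metallothioneins of the same cluster, were at or under the counting floor. MT1F (ENSG00000198417, 56657694 to 56660698) had 2, 1 and 0 fragments in the controls and 3, 0 and 0 under HYOU1 shRNA. MT1G (ENSG00000125144, 56666731 to 56668065, minus strand) had 3 fragments in HYOU1 shRNA replicate 1 and 0 in the other libraries. A count of 3 fragments was worth 0.0848 to 0.0930 FPKM for MT1F and 0.213 to 0.234 FPKM for MT1G, and no change was detectable at this depth. Such floors cover counting error only.

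Together the 5 members took 82.0, 71.4 and 60.8 of every 1000000 fragments in the controls. They took 174, 172 and 187 of every 1000000 under HYOU1 shRNA. The group means, 71.4 ± 10.6 and 178 ± 8.11 in 1000000 fragments (SD, n = 3 each), stood 2.49-fold apart. MT2A made up 79.6% ± 2.75 of these fragments in controls and 82.8% ± 0.785 with HYOU1 shRNA (SD, n = 3 each).

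Among the other listed metallothionein genes, MT1A, MT1B, MT1H, MT1HL1, MT1L and MT1M had 0 fragments in every library. MT1JP, MT1CP, MT1IP and MT3 had 1 or 2 in all. MT4 and the pseudogene MT1DP, named after their values were seen, have short gene models and reached the filter only through the HYOU1 shRNA group. Their means were 0.504 and 0.772 FPKM in controls, and 1.76 and 2.43 FPKM with HYOU1 shRNA. The filter thus favoured a rise for both. MT4 had 3, 4 and 1 fragments in the controls and 7, 15 and 6 under HYOU1 shRNA. MT1DP had 3, 5 and 0, and 5, 10 and 10, in the same order. Neither passed over all 6 libraries, with log2 fold changes of 1.65 and 2.18 (limma, adjusted p = 0.0869 and 0.193). With so few fragments these values moved with the settings: MT1DP was at 0.97 without control replicate 3, and with pseudocounts of 1 and 0.01 it was at 1.01 and 3.31, while MT4 was at 0.85 with a pseudocount of 1. MT4 passed without control replicate 1, at 1.83 (adjusted p = 0.0343). Of the 5 tested genes of the list, 2 rose, 0 fell and 3 did not pass, beside 6.6% and 5.66% of all tested genes. At an unadjusted p under 0.05, 4 were higher, MT4 among them, and 0 lower, beside 17% and 14.6%, and voom called 2 rises and 0 falls. The list's median log2 fold change was 1.39, that of MT2A. Above it lay only MT4 and MT1DP, which the filter favoured, and below it MT1E and MT1X, at 1.15 and 0.95.

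Metallothionein genes resemble each other, which limits how well reads can be told apart. Of the 50-base stretches of the main transcript in GENCODE 29, 4.88% of those of MT2A and 5.34% of those of MT1E also occurred in transcripts of other genes. For MT1X the share was 45.1%, and 29.2% were shared with AC026461.1, which overlaps it on the same strand and had 0 fragments in every library. The sources used here do not state how fragments in such stretches were assigned, so the level of MT1X is uncertain. The length used by the authors was the union of all annotated exons. It was 1773 bases for MT1X, where the main transcript has 450, and 1299 for MT2A, where it has 786. Per base of the main transcript MT1X would stand 3.94 times and MT2A 1.65 times higher than in FPKM, in both groups alike.

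MTF1 (ENSG00000188786, chromosome 1, 37809567 to 37859620, minus strand), the factor that drives metallothionein genes when zinc is free, was expressed at a low level. It was at 3.03, 2.33 and 2.31 FPKM in the controls, and stood at 3.30, 2.85 and 3.71 FPKM under HYOU1 shRNA. HYOU1 shRNA replicate 2 lay below control replicate 1, so the groups overlapped. A log2 fold change of 0.35 (SE 0.18) did not pass (limma, adjusted p = 0.226). MTF1 passed without control replicate 1, at 0.47 (adjusted p = 0.0215), and after the GC correction, at 0.41 (adjusted p = 0.0459).

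SLC30A1 (ENSG00000170385, chromosome 1, 211571568 to 211578742, minus strand) encodes ZnT1, the exporter of the plasma membrane and a classical MTF1 target. Its level was 27.7, 19.8 and 17.2 FPKM in the controls, against 20.8, 20.9 and 22.1 FPKM under HYOU1 shRNA. The HYOU1 shRNA libraries lay within the range of the controls. The log2 fold change was 0.0080 with a 95% interval of -0.44 to 0.46 (limma, adjusted p = 0.981). Without control replicate 1 the log2 fold change was 0.20 (adjusted p = 0.0630), with an interval of 0.025 to 0.38. After the GC correction it was 0.20 (adjusted p = 0.0680). Its sign turned under 4 alternatives, with values between -0.14 and -0.020.

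SLC39A7 (ENSG00000112473, chromosome 6, 33200445 to 33204439, plus strand) encodes ZIP7, which releases zinc from the ER and Golgi into the cytosol. Its level was 36.7, 56.3 and 55.8 FPKM in the controls, against 71.9, 69.3 and 75.4 FPKM under HYOU1 shRNA. All HYOU1 shRNA libraries were above all controls, and control replicate 1 was the lowest. A log2 fold change of 0.57 (SE 0.19) did not pass over the 6 libraries (limma, adjusted p = 0.0930). It passed without control replicate 1, at 0.36 (adjusted p = 0.00186), and after the GC correction, at 0.43 (adjusted p = 0.00330). Its first 244 bases overlap RXRB, a retinoid receptor gene on the other strand. RXRB was at 11.5, 17.9 and 18.7 FPKM in the controls, and stood at 24.9, 25.4 and 27.9 FPKM under HYOU1 shRNA. The sources used here do not state whether counting used strand, and the part of RXRB in the value of SLC39A7 was not tested.

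SLC39A10 (ENSG00000196950, chromosome 2, 195575977 to 195737702, plus strand) encodes ZIP10, an importer of the plasma membrane whose gene is repressed by MTF1 when zinc is ample. Its level was 20.0, 9.88 and 9.16 FPKM in the controls, against 7.08, 6.42 and 6.33 FPKM under HYOU1 shRNA. It was the only tested member with every HYOU1 shRNA library below every control. A log2 fold change of -0.87 (SE 0.30) did not pass (limma, adjusted p = 0.102), and control replicate 1 was 1.06 (log2) above the mean of the other controls. SLC39A10 fell by 0.52 without that library (adjusted p = 0.00188) and by 0.68 after the GC correction (adjusted p = 0.00347).

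SLC39A14 (ENSG00000104635, chromosome 8, 22367249 to 22434129, plus strand) encodes ZIP14, a hepatic importer of zinc and iron. Its level was 44.9, 39.0 and 39.6 FPKM in the controls, against 44.9, 43.0 and 42.6 FPKM under HYOU1 shRNA. The groups overlapped. The log2 fold change was 0.083 with a 95% interval of -0.18 to 0.35 (limma, adjusted p = 0.632), and 0.15 with an interval of 0.014 to 0.28 without control replicate 1 (adjusted p = 0.0697). Under quantile scaling it was -0.029.

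**Figure D3:**
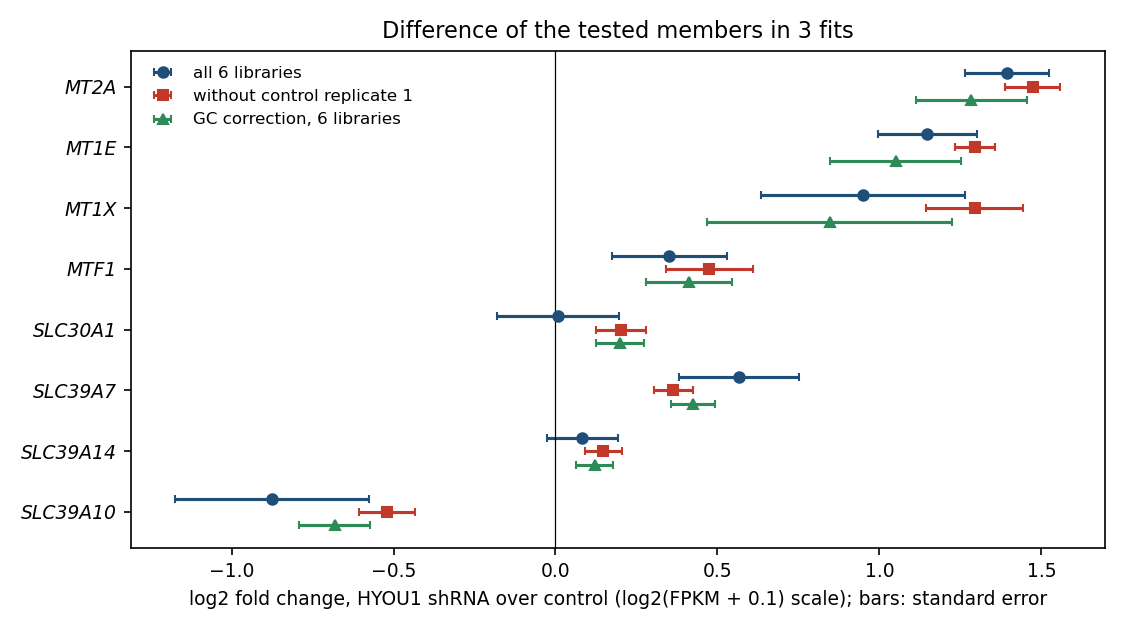
Log2 fold change (HYOU1 shRNA over control, log2(FPKM + 0.1) scale) of the 8 tested members with its standard error, over all 6 libraries (blue circles), without control replicate 1 (red squares) and after the GC correction (green triangles). MT2A lies between 1.28 and 1.47 in these fits, SLC39A10 lies below 0 in each, and SLC30A1 moves from 0.0080 to 0.20.

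On the deposited FPKM scale, the order of the mean levels differed between the groups at its top. In controls SLC39A7 had the highest mean, at 49.6 ± 11.2 FPKM (SD, n = 3), followed by MT2A and SLC39A14 at 42.9 ± 5.23 and 41.2 ± 3.28 FPKM, and the values of these genes overlapped. With HYOU1 shRNA MT2A led, at 112 ± 7.57 FPKM, above SLC39A7 at 72.2 ± 3.07 and SLC39A14 at 43.5 ± 1.24 FPKM, and the values no longer overlapped. SLC30A1 came next in both groups, at 21.6 ± 5.48 FPKM in controls and 21.3 ± 0.714 FPKM with HYOU1 shRNA, and overlapped SLC39A10 in controls. SLC39A10 stood above MT1E in controls, at 13.01 ± 6.06 against 9.30 ± 1.74 FPKM with overlapping values, and below it with HYOU1 shRNA, at 6.61 ± 0.410 against 20.5 ± 0.207 FPKM. MT1X and MTF1 overlapped in controls, at 2.62 ± 1.24 and 2.56 ± 0.408 FPKM, and did not with HYOU1 shRNA, at 4.82 ± 0.264 and 3.29 ± 0.431 FPKM. This order depends on the length used. Per base of the main transcript, MT2A led in both groups, at 70.9 in controls, above SLC39A14 at 61.6 and SLC39A7 at 58.6, with overlapping values, and at 185.8 with HYOU1 shRNA. On that scale MT1E stood below SLC30A1 in controls, at 13.9 against 21.6, and above it with HYOU1 shRNA, at 30.6 against 21.3. MT1X stood below SLC39A10 in controls, at 10.3 against 16.6, and above it with HYOU1 shRNA, at 18.98 against 8.42.

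The lists of zinc transporters, which include the members, held no call over the 6 libraries (limma). Of 6 tested exporters 0 rose and 0 fell at an adjusted p under 0.05, beside 6.6% and 5.66% of all tested genes. At an unadjusted p under 0.05, 1 was higher and 0 lower, beside 17% and 14.6%. The higher exporter was SLC30A3, which reached the filter only through the HYOU1 shRNA group. Its mean was 0.788 FPKM in controls and 1.38 FPKM with HYOU1 shRNA. The voom fit called SLC30A3 higher, at 0.80 (adjusted p = 0.0408). SLC30A3 and SLC30A5, named after their values were seen, passed without control replicate 1, at 0.64 and 0.34 (adjusted p = 0.0417 and 0.0102). In the GC-corrected fit SLC30A5 passed, at 0.29 (adjusted p = 0.0234). SLC30A5, an exporter that loads the early secretory pathway with zinc, was at 13.8, 9.21 and 8.54 FPKM in the controls, and stood at 10.8, 10.95 and 11.98 FPKM under HYOU1 shRNA. Every HYOU1 shRNA library was below every control for 3 of the 6 exporters, SLC30A6, SLC30A7 and SLC30A9, also named after their values were seen. Their log2 fold changes were -0.36, -0.42 and -0.27 (limma, adjusted p = 0.212, 0.239 and 0.353). Only SLC30A3 had every HYOU1 shRNA library above every control. Of all tested genes, 20.6% had every HYOU1 shRNA library below every control, and 23.8% above. The median log2 fold change of the exporters was -0.13.

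Of 10 tested importers 0 rose and 0 fell (limma, adjusted p under 0.05), beside 6.6% and 5.66% of all tested genes. At an unadjusted p under 0.05, 1 was higher and 2 lower, beside 17% and 14.6%, and voom made 0 calls. The median log2 fold change was 0.079. Without control replicate 1, 4 rose and 2 fell, in a fit that called 24.6% of all tested genes higher and 19.7% lower. Besides SLC39A7 these rises were SLC39A9, a Golgi importer, at 0.63 (adjusted p = 0.000681), SLC39A4, the intestinal importer, at 0.32 (adjusted p = 0.0310), and SLC39A6 at 0.22 (adjusted p = 0.0305). SLC39A11 fell with SLC39A10, by 0.39 (adjusted p = 0.0386). After the GC correction SLC39A7 and SLC39A9 rose and SLC39A10 and SLC39A11 fell. SLC39A4, SLC39A6, SLC39A9 and SLC39A11 were named after their values were seen. SLC39A9 was at 15.4, 9.60 and 10.6 FPKM in the controls, and stood at 17.0, 14.8 and 15.4 FPKM under HYOU1 shRNA, so control replicate 1 alone lay within the range of the other group.

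Genes of copper handling, which metallothioneins also serve, were not called either. Of 10 tested copper genes 0 rose and 0 fell (limma, adjusted p under 0.05), beside 6.6% and 5.66% of all tested genes. At an unadjusted p under 0.05, 0 were higher and 1 lower, beside 17% and 14.6%, and voom made 0 calls. SOD1, the copper and zinc superoxide dismutase, had the highest mean and differed by -0.035 (adjusted p = 0.823). Without control replicate 1, where 19.7% of all tested genes fell, 3 fell, namely ATP7A, a copper-exporting pump, by 0.65 (adjusted p = 0.00536), COX17, a mitochondrial copper chaperone, by 0.28 (adjusted p = 0.0150), and CCS, the copper chaperone of SOD1, by 0.27 (adjusted p = 0.0189). These 3 were named after their values were seen. Over all 6 libraries CCS differed by 0.13, with control replicate 1 at 6.91 FPKM and the other libraries at 12.5 to 16.5 FPKM. ATP7A was also called in the GC-corrected fit, at -0.79 (adjusted p = 0.00507).

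Among 17 tested zinc-dependent and metal-responsive genes, 4 rose, 2 fell and 11 did not pass, beside 6.6% and 5.66% of all tested genes. The median log2 fold change was 0.0048. HSPA1A and HSPA1B, inducible HSP70 genes that respond to heavy metals, rose by 1.25 and 1.33 (limma, adjusted p = 0.0257 and 0.0143). Their transcripts are near-identical, so how reads divide between the copies is uncertain. ALPG, a zinc-dependent alkaline phosphatase, rose by 1.43 (adjusted p = 0.0303), and its reads may be shared with the closely related ALPP. KLF4, a zinc finger transcription factor, rose by 0.67 (adjusted p = 0.0309). CA12, a zinc-dependent carbonic anhydrase, fell by 0.80 (adjusted p = 0.0137), from 16.9 ± 1.39 to 9.69 ± 0.667 FPKM (SD, n = 3 each). SLC7A11, the cystine transporter, fell by 1.90 (adjusted p = 0.00931). All 6 lost the call when HYOU1 shRNA replicate 1, 2 or 3 was left out, as did ALPG, HSPA1A, CA12 and KLF4 without control replicate 2 and KLF4 without control replicate 3. ALPG, HSPA1A and KLF4 also lost it without the filter on low values. ALPL, the tissue-nonspecific alkaline phosphatase, had the highest mean of those not called. It was at 88.3, 173 and 166 FPKM in the controls, and stood at 98.3, 103 and 106 FPKM under HYOU1 shRNA. Its log2 fold change was -0.41 (adjusted p = 0.318), and it fell by 0.73 without control replicate 1 (adjusted p = 7.41e-05).

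**Figure D4:**
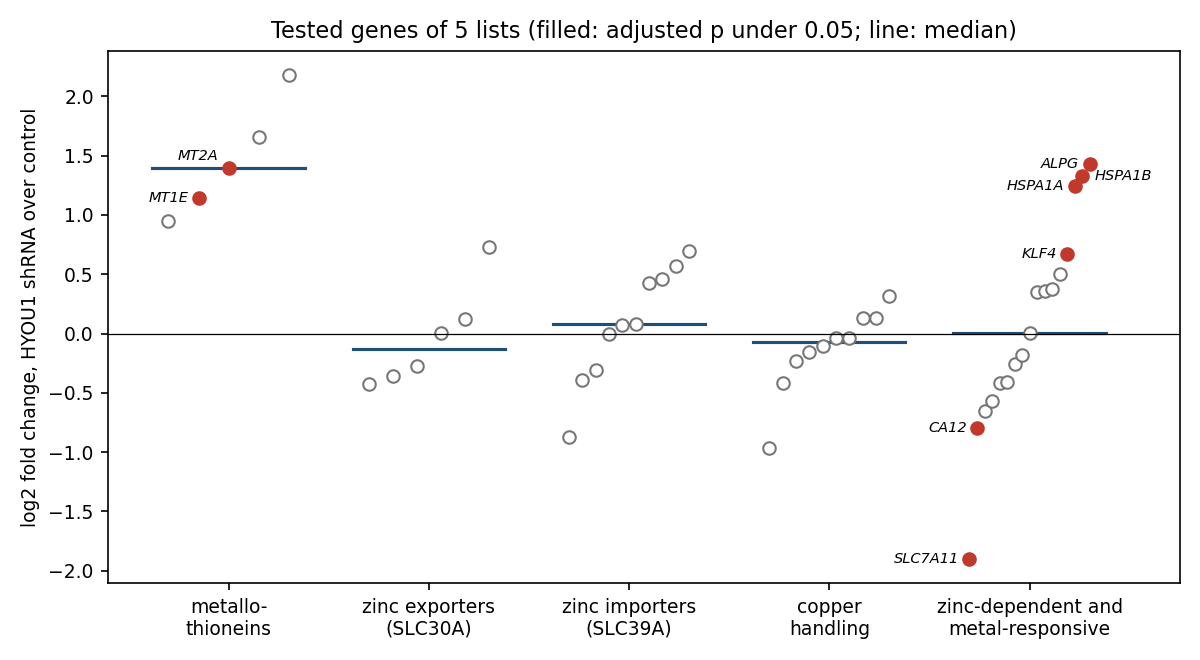
Log2 fold change (HYOU1 shRNA over control) of each tested gene in 5 lists over all 6 libraries, ordered within a list. Filled points passed an adjusted p of 0.05 and are named, open points did not, and lines mark the median. The 5 metallothioneins all lie above 0, but MT4 and MT1DP among them reached the filter only through the HYOU1 shRNA group. Both transporter lists spread on both sides of 0.

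The protein-coding genes whose values over the 6 libraries lay closest to those of MT2A were SEPT3, IFFO2, PLEKHB2, RPUSD4 and BTN3A1. Likeness was the root mean square distance of log2 values, each gene centred on its own mean, and it was 0.0813, 0.104, 0.110, 0.119 and 0.122 for these genes. SEPT3, a septin, was at 2.29, 2.01 and 1.86 FPKM in the controls, and stood at 5.53, 5.46 and 5.30 FPKM under HYOU1 shRNA. Being chosen for likeness to MT2A, these genes share its difference between the groups, and no test is given for them.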

How the data were processed

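The authors deposited FPKM for 58735 genes in 6 libraries, per the file headers. The sources used here do not name an aligner, a counting tool or their versions. Identifiers and coordinates of all genes equalled those of GENCODE 29 (GRCh38). FPKM times gene length came in whole multiples of 1 step per library (tolerance 0.01 fragments), from which fragments were recovered. The authors' library totals were proportional to median-of-ratios size factors of these fragments.

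Values were transformed to log2(FPKM + 0.1), which understates changes of weakly expressed genes. Testing was limited to genes whose mean reached 1 FPKM and used limma 3.58.1 in R 4.3.3 (eBayes with trend and robust priors), with p-values adjusted over all 12448 (Benjamini-Hochberg). A gene was called at an adjusted p under 0.05. Every adjusted p in the text is from limma on these log2 values, save where the voom fit on recovered fragments is named. The GC correction removed a lowess trend (span 0.3) on GC content in each library; it also removes real differences that follow GC content. The fit was tested on simulated data, whose levels and spread were drawn without control replicate 1. That test does not cover the departure of this library from the other controls.

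All members and HYOU1 are named whatever their result, with up to 6 called genes changed at least 1.5-fold per list, the most abundant gene not called, and the 5 genes most like the leading metallothionein. The members and lists were chosen with earlier results of these data known. SCO2 had 2 identifiers and was left out of the copper list. Names turned into dates, such as that of SEPT3, were restored from the identifiers for 27 genes. No per-sample column was left unmapped.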

Additional observations from a re-analysis of the deposited data

How the results depend on the processing

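Over all genes, 1526 calls became 938 with a filter at 5 FPKM, 770 without a filter, 5047 after the GC correction, and 49 to 5518 when 1 library was left out (49 without HYOU1 shRNA replicate 3, 5518 without control replicate 1). The 2 calls among the members became 5 after the GC correction and 0 to 6 when 1 library was left out (0 without HYOU1 shRNA replicate 3, 6 without control replicate 1). The cause was not tested. The calls of MT2A and MT1E held under both pseudocounts, all filters, quantile and TPM scaling, voom and the replicate block.

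The labels do not say whether the replicate numbers pair the libraries, and the main fit treated them as unpaired. Deviations of same-numbered libraries correlated at 0.125, -0.0933 and 0.170 over genes. HYOU1 shRNA replicates 1 and 3 correlated best with the control of their own number, and replicate 2 with control replicate 1. With 3 libraries per group these correlations cannot decide the pairing. With the number as a block 940 of 12448 genes and the same 2 members, MT2A and MT1E, were called, and the adjusted p of KLF4 was 0.0659 (limma). With the block and the GC correction together, an alternative chosen after seeing the data, 4505 genes and 4 members were called.

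Signs turned for values near 0. SLC30A1 was at -0.092 under quantile scaling and ranged from -0.14 to 0.20 when 1 library was left out (negative, at -0.039, -0.14 and -0.020, without control replicates 2 and 3 and HYOU1 shRNA replicate 3). SLC39A14 was at -0.029 under quantile scaling and SOD1 at 0.0029 under TPM scaling. CCS was at -0.28 after the GC correction, with or without the block, and ranged from -0.27 (without control replicate 1) to 0.35 when 1 library was left out. SLC39A6, at -1.7e-05 over all libraries, was at 0.00014 with a pseudocount of 0.01, 0.038 under TPM scaling, 0.14 after the GC correction with or without the block, and ranged from -0.11 to 0.22 when 1 library was left out. SLC30A5 ranged from -0.0073 (without control replicate 3) to 0.34 when 1 library was left out. Counting depth limits MT1F, MT1G and every other listed metallothionein gene outside MT2A, MT1E and MT1X.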
